A study of Mus musculus with 12 samples.

Results

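Mouse embryonic fibroblasts labelled TAZKo were compared here with fibroblasts labelled WT, both kept in normoxia. The samples were taken by their titles and number 6 of the 12 in the series, with 3 libraries per genotype. The cells are of the C57BL/6 strain, grown in DMEM with fetal bovine serum, and the study describes the WT cells as isogenic. The other 6 libraries, of the same genotypes after 24 hours of hypoxia, entered the fit to estimate the spread between libraries and are quoted only beside a result in normoxia. The labels give neither the edit that made the TAZKo cells nor the number of lines, embryos or cultures behind the libraries. If each genotype is a single line, its genotype and any other difference between the lines cannot be told apart, and the p-values below measure only the spread between these libraries, which may be technical.

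Tafazzin, encoded by Taz on the X chromosome, is a mitochondrial transacylase that remodels the acyl chains of cardiolipin, the signature phospholipid of the inner mitochondrial membrane, which holds respiratory complexes and cristae in shape. Inherited loss of tafazzin causes Barth syndrome, a disease of heart and skeletal muscle. Mitochondrial stress in cultured cells is known to act through eIF2alpha phosphorylation and the transcription factor ATF4, which drives genes for amino acid synthesis, amino acid uptake and tRNA charging. Fibroblasts are the main producers of collagen-rich extracellular matrix and keep a memory of their body position in the expression of Hox and other homeobox genes.

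Expression is given as CPM, reads of a gene per 1000000 counted reads after TMM scaling, which sets a common level between libraries, and a pair of values joined by "to" gives the WT mean and then the TAZKo mean of n = 3 libraries each, with ± for the SD. A log2 difference is TAZKo minus WT, a gene is called when its adjusted p in the edgeR quasi-likelihood test is under 0.05, and SE is the standard error of the log2 difference. A signed number alone in parentheses after a gene, or any value that follows "higher by", is its log2 difference. Taz itself was not reduced. The gene (ENSMUSG00000009995, chrX:74281912-74290151 in GRCm38, GENCODE M21) was at 37.996, 33.3 and 32.7 CPM in the WT-labelled libraries and 45.8, 39.8 and 40.95 CPM in the TAZKo-labelled libraries. The groups did not overlap and the mean was higher in TAZKo (34.6 ± 2.92 to 42.2 ± 3.18 CPM; log2 difference 0.29, SE 0.08, adjusted p = 0.0139 in edgeR), although the call was lost with only the 6 normoxia samples and without TAZKo replicate 1, WT replicate 2 or WT replicate 3. Reads summed over a whole gene do not show a small change in its sequence, so the transcript level neither checks nor contradicts a short edit. The groups are therefore called by their labels, and every direction below rests on those labels.

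Library totals ran from 21594739 to 31204510 counts, and 14408 of 48709 genes had enough reads for the test. Spearman correlations were 0.989 to 0.998 within a genotype and 0.977 to 0.986 between genotypes. WT replicate 1 stood apart, with a mean absolute log2 deviation from its group of 0.211 against 0.0989 to 0.136 in the other 5 libraries, and mitochondrially encoded genes took 0.921% of its counts against 1.57% to 1.93% in those 5. In all, 4384 genes were called, 30.4% of those tested, with 2242 higher (15.6%) and 2142 lower (14.9%) in TAZKo, and without TAZKo replicate 3 the number called higher was 1440. A difference of at least 2-fold was called for 858 genes (5.96%), 359 higher (2.49%) and 499 lower (3.46%). In 6173 tested genes (42.8%) the 3 TAZKo and 3 WT libraries did not overlap. Genes named below by rule as the largest changes, over all genes or in a list, had to be called and without overlap. For them neither property is further support. In hypoxia 32.8% of genes were called, and the difference between genotypes differed between the conditions for 2.43%. The calls were not spread evenly over the genome. On chromosome 10, 378 genes were higher and 28 lower, on chromosome 19, 20 were higher and 231 lower, on chromosome 8, 57 were higher and 251 lower, and on chromosome 18, 23 were higher and 135 lower. Outside these 4 chromosomes 3261 genes were called, 27.0% of those tested there, with 1764 higher and 1497 lower. Smaller shifts the same way as on chromosome 10 were seen on chromosome 4, with 240 higher and 70 lower, and chromosome 3, with 155 higher and 60 lower. Outside all 6 chromosomes 10420 genes were tested, and 1369 were higher and 1367 lower. The part that these chromosome-wide shifts play in the gene groups below was not tested. Counts without these chromosomes are therefore given for the main groups, to be read beside the numbers outside them. The chromosome is stated only for some of the genes named below. Each list count below over all chromosomes stands beside 15.6% higher and 14.9% lower among all tested genes, and several lists lie near those shares. The lists were chosen with earlier results of these data known, so shares above these may in part reflect that choice.

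**Figure D1:**
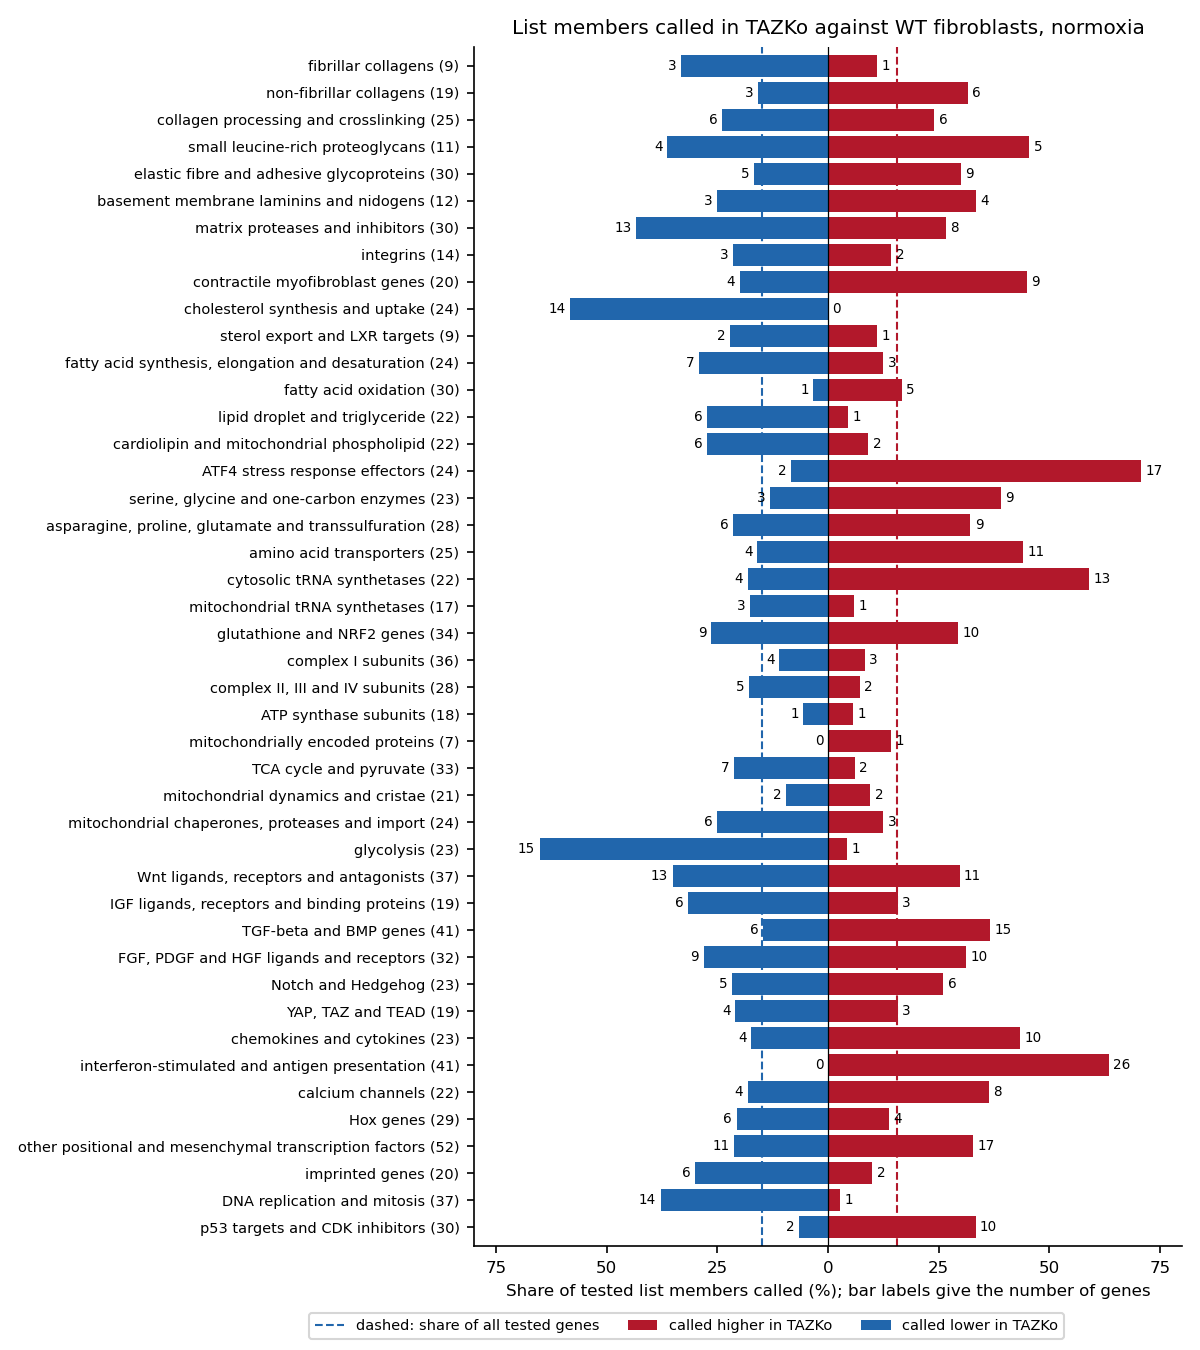
Share of tested members called higher (right) and lower (left) in TAZKo for each gene list, with the number tested in parentheses, the number called at each bar and dashed lines at the shares of all tested genes (15.6% higher, 14.9% lower). ATF4 effectors, cytosolic tRNA synthetases and interferon genes extend to the right, and glycolysis and cholesterol synthesis extend to the left.

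Some genes were expressed in WT and all but absent in TAZKo. A gene was counted as silent in a genotype when it had at most 3 reads in each of its 3 normoxia libraries and at least 1 CPM in each library of the other genotype. By this rule 27 genes were silent in TAZKo, 0.223% of the 12121 genes that reached 1 CPM in every library of a genotype, and 0 were silent in WT. Of the 27, 25 are protein coding, and they lie on 15 chromosomes. In these bulk samples, fewer cells that express a gene and less RNA per cell cannot be told apart.

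The most highly expressed of them encode a kinase, a Wnt ligand and a growth factor carrier. Stk26, a Ste20-family kinase gene on the X chromosome, had 328, 487 and 723 reads in the WT-labelled libraries and 0, 1 and 0 in the TAZKo-labelled libraries. Wnt5a, a ligand of non-canonical Wnt signalling that shapes limb and body axis growth, had 342, 420 and 511 reads in the WT-labelled libraries and 2, 0 and 0 in the TAZKo-labelled libraries. Igfbp3, the main carrier of insulin-like growth factors in serum, had 335, 343 and 488 reads in the WT-labelled libraries and 2, 0 and 1 in the TAZKo-labelled libraries. The rule for silence requires a gap between the genotypes, so the gap in these 3 genes was set by the choice.

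Further signalling genes followed the same pattern. Flt4, the VEGF-C receptor of lymphatic endothelium, had 260, 274 and 327 reads in the WT-labelled libraries and 3, 0 and 2 in the TAZKo-labelled libraries. Gdf2, which encodes BMP9, had 167, 155 and 201 reads in the WT-labelled libraries and 1, 1 and 1 in the TAZKo-labelled libraries. Gdf6, another BMP-family ligand, had 55, 65 and 96 reads in the WT-labelled libraries and 2, 2 and 3 in the TAZKo-labelled libraries. Hunk, a kinase gene, had 93, 115 and 128 reads in the WT-labelled libraries and 0, 0 and 0 in the TAZKo-labelled libraries, so its WT level was at least 121-fold higher when the TAZKo group is set at a floor of 3 reads over its 3 libraries. Plxdc2, a plexin-domain membrane protein gene, was likewise at 0 reads in every TAZKo library and at least 86.9-fold higher in WT. Isoc1 and Fahd2a were at 0 in every TAZKo library as well, with bounds of at least 44.5-fold and 37.8-fold. Lypd6, which encodes a membrane-anchored protein of the Ly6 family, had 123, 145 and 171 reads in the WT-labelled libraries and 2, 0 and 0 in the TAZKo-labelled libraries, and Vat1l had 70, 95 and 107 reads in the WT-labelled libraries and 2, 1 and 0 in the TAZKo-labelled libraries.

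Position and metabolism genes also belonged to this set. Hoxd8, a homeobox gene of the limb and trunk (chr2:74704615-74707933, plus strand), had 183, 206 and 256 reads in the WT-labelled libraries and 0, 0 and 1 in the TAZKo-labelled libraries. Hoxd3os1, an antisense transcript that spans Hoxd8 (chr2:74703248-74716130, minus strand), had 33, 30 and 52 reads in the WT-labelled libraries and 0, 0 and 1 in the TAZKo-labelled libraries, and since the counting is not stated to use strand, the reads of the pair cannot be told apart. Of the other Hoxd genes, Hoxd11 had 15, 14 and 16 reads in WT and 1, 3 and 2 in TAZKo, Hoxd4 had 6, 9 and 10 against 0, 0 and 1 (a gene that overlaps Hoxd3), and Hoxd10 had 11, 11 and 19 against 2, 0 and 9. Hoxd1, Hoxd9, Hoxd12 and Hoxd13 had at most 4 reads in any normoxia library of either genotype. Tbx15, a T-box factor of mesenchyme, had 35, 42 and 48 reads in the WT-labelled libraries and 2, 2 and 2 in the TAZKo-labelled libraries. Ldhb, the heart-type lactate dehydrogenase subunit, had 53, 38 and 50 reads in the WT-labelled libraries and 3, 2 and 0 in the TAZKo-labelled libraries, and 27.0% of its 50-base words are shared with another annotated gene.

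Silence in normoxia went with very low counts in the hypoxia libraries too. All 27 genes were called lower in TAZKo in hypoxia, where 32.8% of all tested genes were called in either direction. Of the 27, 23 had at most 3 reads in every TAZKo hypoxia library. The remaining 4 genes reached at most 8 reads there. By the same rule 18 of the 27 were silent in TAZKo in hypoxia and 9 were not, and 6 genes fell under 1 CPM in a WT hypoxia library. Vldlr, a lipoprotein receptor, and Pygl, liver glycogen phosphorylase, had low TAZKo counts in hypoxia beside higher WT counts than in normoxia. Vldlr had 35, 27 and 30 reads in the WT-labelled libraries and 2, 2 and 2 in the TAZKo-labelled libraries in normoxia, and 215, 213 and 268 reads in WT but 7, 4 and 8 in TAZKo in hypoxia. Pygl had 25, 23 and 29 reads in the WT-labelled libraries and 1, 0 and 1 in the TAZKo-labelled libraries in normoxia, and 158, 181 and 242 reads in WT but 0, 2 and 0 in TAZKo in hypoxia.

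**Figure D2:**
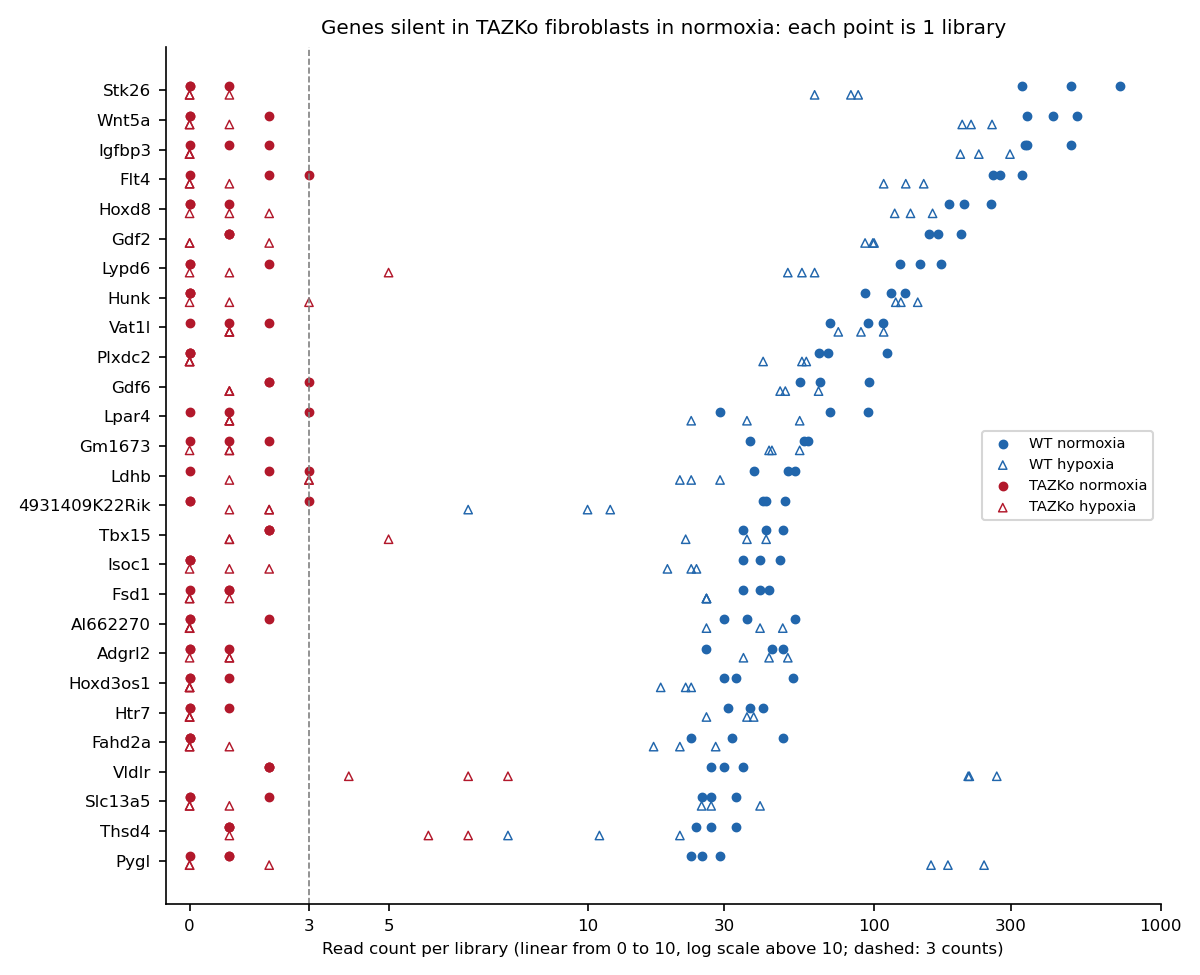
Read counts per library (x axis, linear up to 10 and logarithmic above) of the 27 genes silent in TAZKo normoxia, ordered by their WT level, with filled circles for normoxia, open triangles for hypoxia, blue for WT and red for TAZKo. All normoxia counts of TAZKo lie at or below 3, as the rule requires, and the hypoxia counts of WT for Vldlr and Pygl lie above their normoxia counts.

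Just outside the rule were 32 genes that reached 4 to 10 reads in a TAZKo library, led by Peg3, Tmod2 and Cdh11, and 10 genes in the opposite direction. Of these 10, Tenm4, a teneurin adhesion protein gene, had 4, 2 and 1 reads in WT and 90, 79 and 111 in TAZKo. Ifi44, an interferon-stimulated gene, had 4, 9 and 6 reads in the WT-labelled libraries and 55, 48 and 98 in the TAZKo-labelled libraries. For both, the lack of overlap follows from the limits on reads and CPM that chose them. Among the 20 silent genes with a RefSeq promoter window, the observed-to-expected CpG ratio over the 250 bases before the start had a median of 0.588, against 0.734 over all tested genes with a window. A low ratio was not particular to silent genes. The median was 0.385 for the 15 largest increases and 0.471 for the 15 largest decreases, over those with a window. Igfbp3 and Gdf2 are shown as examples with many and few CG dinucleotides, in capitals, 32 in Igfbp3 and 5 in Gdf2 (RefSeq, GRCm38.p6, 5′ to 3′, chr11:7213924-7214173, minus strand and chr14:33940789-33941038, plus strand).
Igfbp3: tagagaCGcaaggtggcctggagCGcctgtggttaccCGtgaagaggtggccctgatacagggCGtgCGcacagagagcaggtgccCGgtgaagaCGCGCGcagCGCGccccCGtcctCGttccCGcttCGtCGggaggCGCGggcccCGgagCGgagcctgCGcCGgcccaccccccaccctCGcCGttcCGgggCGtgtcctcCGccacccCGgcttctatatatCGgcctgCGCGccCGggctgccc
Gdf2: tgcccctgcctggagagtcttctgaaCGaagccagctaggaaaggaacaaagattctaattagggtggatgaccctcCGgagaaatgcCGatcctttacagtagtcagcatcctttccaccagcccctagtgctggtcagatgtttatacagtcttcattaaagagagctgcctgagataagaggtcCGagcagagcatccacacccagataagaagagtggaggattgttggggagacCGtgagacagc

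Many genes of amino acid uptake, cytosolic tRNA charging and the ATF4 stress response were called higher in the TAZKo libraries. Of 24 tested effectors of the ATF4 stress response, 17 were called higher and 2, Vldlr and Hspa5, lower, and their median log2 difference was 0.54 against 0.01 over all tested genes. Of 22 cytosolic tRNA synthetases and their scaffold proteins, 13 were higher and 4 lower (median 0.33), and of 25 amino acid transporters 11 were higher and 4 lower (median 0.50). The 2 lists of amino acid synthesis were more divided, with 9 of 23 serine and folate enzymes higher and 3 lower (median 0.02) and 9 of 28 enzymes of asparagine, proline, glutamate and transsulfuration higher and 6 lower (median 0.08). Over the 5 amino acid lists together, 121 genes were tested, 58 were higher and 19 lower. With the genes of chromosomes 8, 10, 18 and 19 set aside, 12 of 17 ATF4 effectors were higher and 1 lower, and 9 of 15 cytosolic synthetases were higher and 1 lower. With chromosomes 3 and 4 set aside too, 11 of 16 ATF4 effectors were higher and 1 lower, 7 of 12 cytosolic synthetases higher and 1 lower, 6 of 18 transporters higher and 2 lower, 3 of 15 serine and folate enzymes higher and 2 lower, and 5 of 20 of the other synthesis enzymes higher and 4 lower. Without TAZKo replicate 3, 2 cytosolic synthetases were lower.

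Atf4 itself, the transcription factor of this response, was at 426, 367 and 336 CPM in the WT-labelled libraries and 631, 612 and 559 CPM in the TAZKo-labelled libraries. The groups did not overlap (log2 difference 0.67, SE 0.08, adjusted p = 3.8e-05 in edgeR). Trib3, a pseudokinase that feeds back on ATF4 and CHOP, went from 21.9 ± 3.996 to 113 ± 10.1 CPM, the largest increase among the effectors (log2 difference 2.37, SE 0.12, adjusted p = 1.2e-08 in edgeR). Chac1, which degrades glutathione, was at 33.8, 31.4 and 25.7 CPM in the WT-labelled libraries and 117, 121 and 106 CPM in the TAZKo-labelled libraries, a log2 difference of 1.92. Sesn2, a leucine sensor that restrains mTORC1, was at 41.9, 35.3 and 35.5 CPM in the WT-labelled libraries and 137, 125 and 119.99 CPM in the TAZKo-labelled libraries (1.76). For all of these genes every TAZKo library lay above every WT library.

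The other called effectors differed less. Ddit3, which encodes CHOP, was higher by 1.28 on the log2 scale (18.4 to 44.6 CPM from WT to TAZKo), Nupr1, a small stress-induced chromatin protein gene, by 1.12 (28.3 to 61.3 CPM) and Atf5, a further ATF factor linked to the mitochondrial stress response, by 1.09 (114 to 242 CPM). Fgf21, a hormone released by tissues with mitochondrial damage, was low in both groups and higher in TAZKo (2.72 to 5.85 CPM, log2 difference 1.10, SE 0.19). Hspa5, the ER chaperone BiP, went the other way, from 1666 ± 8.602 to 1362 ± 67.3 CPM (log2 difference -0.29, SE 0.05). Ern1, a sensor of another branch of the unfolded protein response, was not called, with a log2 difference of 0.07.

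Among serine and folate enzymes, the 3 called lower became 5 without WT replicate 1 or WT replicate 3. The largest increase was in Aldh1l2, the mitochondrial formyltetrahydrofolate dehydrogenase, at 51.7, 50.9 and 50.6 CPM in the WT-labelled libraries and 345, 330.4 and 307 CPM in the TAZKo-labelled libraries. No library of the groups overlapped and the log2 difference was 2.68 (SE 0.07, adjusted p = 1.6e-11 in edgeR). Aldh1l2 lies on chromosome 10 and shares 16.8% of its 50-base words with an overlapping gene. The chromosomes of the other enzymes named here are not stated. With the genes of chromosomes 8, 10, 18 and 19 set aside, 5 of 17 serine and folate enzymes were higher and 2 lower. Along the serine pathway, Psat1 went from 313 ± 18.8 to 597 ± 54.4 CPM (0.93) and Psph from 108 ± 9.31 to 230.1 ± 21.4 CPM (1.09). Shmt2, which passes the serine carbon to folate inside mitochondria, went from 268 ± 36.6 to 537 ± 39.8 CPM (0.9997), and Mthfd2 and Mthfd1l, the next mitochondrial steps, were higher by 0.73 and 0.82. The cytosolic counterparts Shmt1 and Mthfd1 were not called, with log2 differences of -0.17 and -0.12. Ahcy, which splits S-adenosylhomocysteine, and Gcsh, of glycine cleavage, were lower (-0.70 and -0.37).

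Cth, cystathionine gamma-lyase, which makes cysteine by transsulfuration, was at 11.5, 13.9 and 11.6 CPM in the WT-labelled libraries and 81.7, 90.1 and 75.7 CPM in the TAZKo-labelled libraries. This was the largest of the 15 increases named by a rule that admits only genes without overlap (log2 difference 2.74, SE 0.13, adjusted p = 4.8e-09 in edgeR). Cbs, the step before it, was not called at 3.13 to 3.59 CPM (log2 difference 0.20). Asns, asparagine synthetase, was at 174, 173 and 154 CPM in the WT-labelled libraries and 392, 378 and 353 CPM in the TAZKo-labelled libraries (1.17), again without overlap. Pycr1, the mitochondrial proline enzyme, went from 36.9 ± 2.56 to 85.95 ± 4.69 CPM (1.22). Glul, glutamine synthetase, was lower (161 ± 12.3 to 84.99 ± 5.94 CPM; log2 difference -0.92, SE 0.10), and Asl, argininosuccinate lyase, and Got1 and Got2, the aspartate aminotransferases, were lower (-0.60, -0.44 and -0.35). Cth lies on chromosome 3.

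Of the transporters, Slc7a11, the cystine importer xCT, was at 4.11, 7.55 and 6.302 CPM in the WT-labelled libraries and 27.1, 31.4 and 30.3 CPM in the TAZKo-labelled libraries. The groups did not overlap (log2 difference 2.30, SE 0.19, adjusted p = 1.1e-06 in edgeR), and the gene lies on chromosome 3. Slc7a5 and Slc3a2, the light and heavy chains of the leucine importer LAT1, were higher by 1.04 and 0.69, and Slc1a4 and Slc7a1, carriers of neutral and cationic amino acids, by 1.32 and 0.90. Slc6a9, a glycine carrier, was higher as well (1.43). Slc6a6, the taurine carrier, was lower (496 to 351 CPM, -0.50), as were Slc43a2 and Slc38a7 (-0.36 and -0.28). Among tRNA synthetases the largest increases were in Mars (206 to 322 CPM, 0.64), Cars (0.58) and Iars (0.57), and Farsa, Kars and Hars were lower (-0.35, -0.25 and -0.24). Of 17 mitochondrial tRNA synthetases, 1, Rars2, was higher (0.26; 0 without WT replicate 3 or any 1 TAZKo library, 2 without WT replicate 1 or with the replicate block) and 3 were lower, Iars2 (-0.40) and Yars2 (-0.21) among them, and the difference between the synthetase lists was not tested.

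Glutathione and NRF2 genes were divided, with 10 of 34 higher (6 without WT replicate 3) and 9 lower. Nqo1, a quinone reductase and classic NRF2 target, was higher (23.2 ± 0.572 to 40.1 ± 1.73 CPM; 0.79), while Hmox1, heme oxygenase, was lower (104 ± 9.84 to 68.1 ± 3.78 CPM; -0.61). Gstt1 and Gstm2, glutathione transferases, were higher by 0.63 and 0.45. Gsta3 and Mgst1, of the same enzyme class, were lower (-1.27 and -0.84). Gclm, the modifier subunit of glutathione synthesis, was lower (-0.26).

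**Figure D3:**
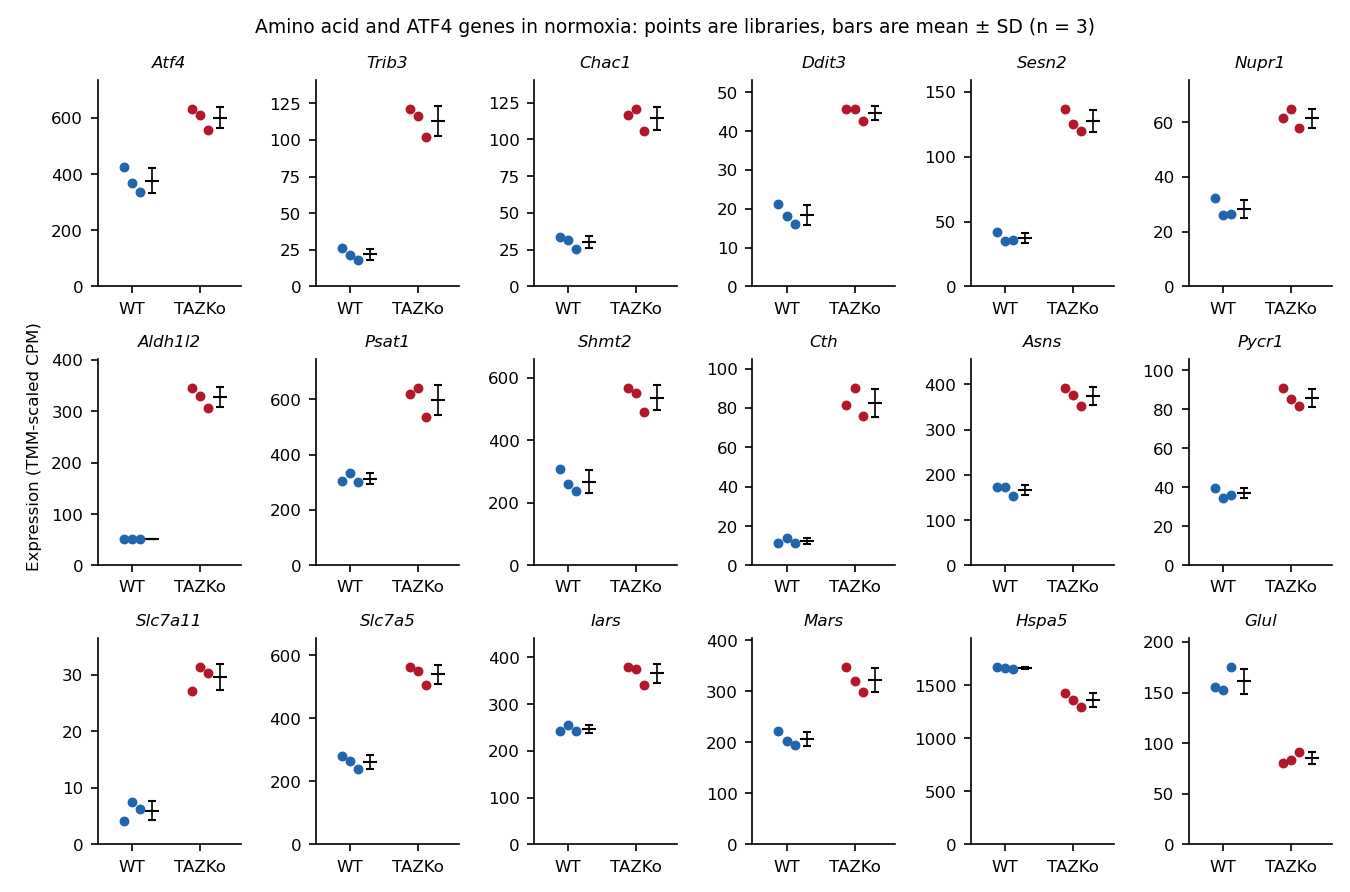
CPM of 18 amino acid and ATF4 genes in each WT (blue) and TAZKo (red) normoxia library, with the mean and SD of n = 3 beside the points and each axis starting at 0. In the 16 genes before Hspa5 and Glul the red points lie above the blue ones, and in Hspa5 and Glul they lie below.

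ATF4 binds, with C/EBP partners, a composite element often written TGATGNAA. The promoters of 6 genes called higher in these lists are shown because they hold this string, printed in capitals on either strand (250 bases before the start, RefSeq, GRCm38.p6, 5′ to 3′ on the gene's strand).
Asns (chr6:7693210-7693459, minus strand): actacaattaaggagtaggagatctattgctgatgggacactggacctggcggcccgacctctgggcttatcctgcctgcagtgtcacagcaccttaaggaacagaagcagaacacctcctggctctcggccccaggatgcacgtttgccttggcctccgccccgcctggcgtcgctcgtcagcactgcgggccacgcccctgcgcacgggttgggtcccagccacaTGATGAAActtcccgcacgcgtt
Chac1 (chr2:119350992-119351241, plus strand): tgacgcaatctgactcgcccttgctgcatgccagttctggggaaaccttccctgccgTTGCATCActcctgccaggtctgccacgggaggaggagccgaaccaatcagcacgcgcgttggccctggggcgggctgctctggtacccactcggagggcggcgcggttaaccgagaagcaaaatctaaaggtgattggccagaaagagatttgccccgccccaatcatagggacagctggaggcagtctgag
Slc7a11 (chr3:50443614-50443863, minus strand): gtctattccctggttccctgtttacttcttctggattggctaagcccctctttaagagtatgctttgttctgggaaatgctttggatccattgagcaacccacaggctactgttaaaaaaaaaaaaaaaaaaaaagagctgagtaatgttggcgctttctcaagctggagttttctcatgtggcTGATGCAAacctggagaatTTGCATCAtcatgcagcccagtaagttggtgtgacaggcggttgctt
Pycr1 (chr11:120643749-120643998, minus strand): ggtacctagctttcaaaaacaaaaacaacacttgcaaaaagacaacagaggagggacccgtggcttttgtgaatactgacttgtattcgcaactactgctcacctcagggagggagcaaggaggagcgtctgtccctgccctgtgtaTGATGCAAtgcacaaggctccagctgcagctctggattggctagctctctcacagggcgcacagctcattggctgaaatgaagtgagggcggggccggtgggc
Nupr1 (chr7:126625471-126625720, minus strand): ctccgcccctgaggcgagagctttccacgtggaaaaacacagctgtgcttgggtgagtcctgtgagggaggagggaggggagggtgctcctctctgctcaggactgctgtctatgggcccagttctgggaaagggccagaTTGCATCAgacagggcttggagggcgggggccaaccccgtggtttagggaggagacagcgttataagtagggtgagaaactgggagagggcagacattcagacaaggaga
Tars (chr15:11399659-11399908, minus strand): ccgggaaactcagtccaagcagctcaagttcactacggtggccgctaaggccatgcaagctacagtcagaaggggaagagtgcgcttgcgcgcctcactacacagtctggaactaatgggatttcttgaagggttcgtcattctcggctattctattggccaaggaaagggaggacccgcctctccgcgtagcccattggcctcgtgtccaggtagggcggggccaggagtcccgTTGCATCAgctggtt

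The string starts 23 bases before the annotated start in Asns, 193 in Chac1, 103 in Pycr1, 110 in Nupr1 and 15 in Tars, and Slc7a11 holds it at 66 and 47 bases. TGATGNAA, searched on both strands, occurred in 12 of the 44 promoters of amino acid and ATF4 genes called higher that had a window (27.3%) and in 3 of the 49 of tested genes not called higher (6.12%). It occurred in 2.35% of the 10300 tested genes with a window and in 3.91% of all 27025 genes with one. The other called genes with the string were Aars, Atf3, Fgf21, Gars, Herpud1 and Jdp2. The lists hold known ATF4 targets, so this share describes the lists and not an independent search, and a match is not a binding site.

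Most interferon-stimulated and antigen presentation genes were higher in TAZKo. Of 41 tested members, 26 were called higher and 0 lower, with a median log2 difference of 0.81, without WT replicate 1 the count was 30 higher, and without WT replicate 3 1 member was lower. Off chromosomes 8, 10, 18 and 19, 25 of 33 were higher, and 20 of 27 with chromosomes 3 and 4 set aside too. H2-T23, a non-classical MHC class I gene, was at 1.37, 0.833 and 0.833 CPM in the WT-labelled libraries and 6.98, 5.55 and 6.03 CPM in the TAZKo-labelled libraries. H2-D1, a classical class I gene, was at 45.3, 33.7 and 34.6 CPM in the WT-labelled libraries and 81.9, 73.4 and 78.8 CPM in the TAZKo-labelled libraries. Neither pair of groups overlapped (log2 differences 2.62 and 1.04), and H2-T23 and H2-D1 share 16.005% and 14.3% of their 50-base words with H2-K1, which was not called (0.13). H2-Q4, another class I gene, was higher by 1.13 and shares 36.9%. B2m, the light chain of class I molecules, went from 163 ± 16.4 to 228 ± 18.7 CPM (0.48), and Tap1 and Tap2, which pump peptides into the ER, were higher by 0.90 and 0.98.

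Antiviral effectors behaved in the same direction at low levels. Oasl2, an oligoadenylate synthetase-like gene, was at 10.2, 9.83 and 10.9 CPM in the WT-labelled libraries and 22.97, 20.6 and 23.1 CPM in the TAZKo-labelled libraries (1.11). Gbp2, a guanylate-binding GTPase, was at 7.25, 6.19 and 6.52 CPM in the WT-labelled libraries and 14.3, 14.2 and 15.6 CPM in the TAZKo-labelled libraries (1.1481). Irf7, the factor that amplifies type I interferon, went from 5.47 to 10.4 CPM (0.92), Ddx58, which encodes the RNA sensor RIG-I, from 31.8 to 59.9 CPM (0.92) and Isg15, a ubiquitin-like modifier, from 9.996 to 17.5 CPM (0.81). For these 5 genes the genotypes did not overlap. Stat2, a factor that carries the interferon signal, and Ifit1, a common interferon marker, were not called (0.15 and 0.26), and Irf9, a partner of Stat2, was higher by 0.46. Of blood and macrophage markers, Ptprc, Adgre1 and Tyrobp had 0 reads in all 6 libraries, Itgam had at most 2, and Csf1r was lower (-0.88). Cd68 was at 3.36, 2.90 and 2.93 CPM in the WT-labelled libraries and 4.33, 3.47 and 3.62 CPM in the TAZKo-labelled libraries, without overlap (0.31, adjusted p = 0.107 in edgeR). The summed level of the 6 markers was 4.49 to 5.57 CPM in WT and 4.48 to 5.30 CPM in TAZKo. Outside this list, Lyz2 had 8, 8 and 10 reads in the WT-labelled libraries and 46, 37 and 75 in the TAZKo-labelled libraries.

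The chemokine list leaned the same way, with 10 of 23 higher and 4 lower (median 0.45). Cx3cl1, a membrane-bound chemokine, was at 16.8, 13.6 and 14.6 CPM in the WT-labelled libraries and 48.7, 46.2 and 46.8 CPM in the TAZKo-labelled libraries. Cxcl12, a stromal chemokine, was at 909, 948 and 978 CPM in the WT-labelled libraries and 1580.3, 1550.3 and 1629 CPM in the TAZKo-labelled libraries. Both differed without overlap (1.66 and 0.75). Ackr3, the scavenger receptor of CXCL12, was higher by 0.87. Il33, an alarmin, went from 18.6 ± 2.95 to 8.03 ± 0.605 CPM (-1.21), and Cxcl5, which attracts neutrophils, from 149 ± 33.7 to 80.5 ± 19.2 CPM (-0.89), and Lif, a cytokine of the IL-6 family, was lower (-0.53). Il6 and Ccl2 were not called (-0.42 and 0.29).

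Extracellular matrix genes changed in both directions, with 50 of 170 tested members of the matrix lists higher and 44 lower (median log2 difference 0.00), and 8 higher and 22 lower by at least 2-fold. Col1a1, the major chain of type I collagen, was at 3296, 2556 and 2653 CPM in the WT-labelled libraries and 1137, 1163 and 1159 CPM in the TAZKo-labelled libraries. Col1a2, its partner chain, was at only 5.93, 4.74 and 5.32 CPM in the WT-labelled libraries and 1.51, 2.64 and 2.19 CPM in the TAZKo-labelled libraries. Both were lower in TAZKo without overlap (log2 difference -1.30, SE 0.10 and log2 difference -1.33, SE 0.16). Col5a2 was lower (1944 ± 160.2 to 1239 ± 29.5 CPM; -0.65), Col5a3 higher (11.5 to 19.4 CPM; 0.76) and Col3a1 not called (749.6 ± 83.5 to 660.5 ± 18.2 CPM; -0.18), so the fibrillar collagens counted 1 higher and 3 lower of 9.

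Non-fibrillar collagens were divided. Col8a1, a short-chain collagen of vessel walls and basement membranes, was at 23.7, 28.6 and 27.8 CPM in the WT-labelled libraries and 0.631, 0.867 and 0.773 CPM in the TAZKo-labelled libraries, without overlap (log2 difference -5.13, SE 0.14, adjusted p = 3.2e-11 in edgeR), and its partner chain Col8a2 was lower (-0.71). Col12a1 and Col16a1, fibril-associated collagens, were higher (238 to 331 CPM, 0.48, and 73.97 to 108 CPM, 0.55), as was Col4a6 (0.45). Col4a5 of basement membranes was not called (-0.14). In all, 6 of 19 were higher and 3 lower, and 3 were higher without TAZKo replicate 1 or 3 or WT replicate 2 or 3.

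The small leucine-rich proteoglycans, which coat collagen fibrils and bind growth factors, held opposite extremes. Bgn, biglycan, was at 206, 191 and 209 CPM in the WT-labelled libraries and 16.1, 15.3 and 18.3 CPM in the TAZKo-labelled libraries. Ogn, osteoglycin, was at 9.11, 19.1 and 18.98 CPM in the WT-labelled libraries and 62.9, 80.9 and 81.6 CPM in the TAZKo-labelled libraries. The groups overlapped in neither gene (log2 difference -3.60, SE 0.12, adjusted p = 1.8e-10, and log2 difference 2.25, SE 0.20, adjusted p = 2.2e-06, both in edgeR). Prelp, a relative that anchors basement membranes, went from 1.53 to 4.89 CPM (1.68), whereas Dcn, decorin, was not called (363 ± 41.3 to 390.5 ± 64.4 CPM; 0.10). Fmod, fibromodulin, and Podnl1 were higher by 0.41 and 0.30. Of the 11 tested members, 5 were higher and 4 lower, and 3 were higher without any 1 library other than WT replicate 1.

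Of the elastic fibre and adhesive glycoproteins, the large differences were decreases. Fbn1, fibrillin of the microfibrils, was at 18.3, 17.5 and 16.8 CPM in the WT-labelled libraries and 3.41, 3.42 and 3.34 CPM in the TAZKo-labelled libraries (-2.37), and 20.1% of its 50-base words are shared with another annotated gene. Eln, elastin, was at 1.23 to 0.0924 CPM with 1, 4 and 2 reads in the TAZKo libraries, just outside the rule for silence. Tgfbi, a TGF-beta-induced adhesion protein, was at 9.11, 6.93 and 8.48 CPM in the WT-labelled libraries and 0.547, 0.9101 and 0.773 CPM in the TAZKo-labelled libraries (-3.45), and Tnc, tenascin-C, went from 299.99 ± 19.5 to 204 ± 22.4 CPM (-0.55). Fn1, fibronectin, went from 5697 ± 343 to 7356 ± 391 CPM (0.37), and Ccn1, a matricellular target of YAP, from 132 ± 8.34 to 248 ± 6.89 CPM (0.90). Postn, periostin of remodelling tissue, went from 0.661 to 1.29 CPM (0.93), and Tnxb, tenascin-X, and Ccn2 were higher by 0.73 and 0.48. The list as a whole had 9 of 30 higher and 5 lower.

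Of the basement membrane list, Lama4, a laminin chain of vessels and muscle, was at 1.504, 0.877 and 1.27 CPM in the WT-labelled libraries and 0.252, 0.13002 and 0.216 CPM in the TAZKo-labelled libraries. The groups did not overlap (log2 difference -2.56, SE 0.37, adjusted p = 1.7e-04 in edgeR). Lamc1 was lower (-0.34), and Agrn, agrin, Nid1, nidogen, and Lamb2 were higher (0.33, 0.32 and 0.24), so that 4 of 12 were higher and 3 lower, and 2 were higher without any 1 library other than WT replicate 1.

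Enzymes that process collagen were divided. Loxl4, a lysyl oxidase, was at 11.8, 11.3 and 11.8 CPM in the WT-labelled libraries and 44.6, 44.8 and 44.1 CPM in the TAZKo-labelled libraries (log2 difference 1.94, SE 0.08, adjusted p = 2.1e-09 in edgeR). P4ha3, a prolyl hydroxylase subunit, was at 7.25, 6.97 and 7.099 CPM in the WT-labelled libraries and 1.98, 1.65 and 1.27 CPM in the TAZKo-labelled libraries (-2.14). Adamts3, a procollagen N-proteinase, was at 16.1, 15.8 and 15.7 CPM in the WT-labelled libraries and 5.68, 5.72 and 5.35 CPM in the TAZKo-labelled libraries (-1.51). None of these overlapped between genotypes. P3h2 and P3h3, prolyl 3-hydroxylases, were higher by 0.94 and 0.55, and Loxl1 and Loxl2, further lysyl oxidases, lower (-1.29 and -0.35). Serpinh1, the collagen chaperone HSP47, and Plod2, a lysyl hydroxylase, were not called (-0.14 and -0.15), and 6 of 25 members were higher and 6 lower.

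Of matrix proteases and inhibitors, 8 of 30 were higher and 13 lower (median -0.22). Adamts7 and Adamts4, proteases of the ADAMTS family, went from 33.1 ± 1.83 to 11.7 ± 0.597 CPM (-1.49) and 43.3 ± 1.696 to 20.8 ± 0.737 CPM (-1.06), and Mmp13, a collagenase, from 5.61 ± 0.656 to 1.32 ± 0.274 CPM (-2.11). Plau, urokinase, was lower (-0.66). Serpinf1, the anti-angiogenic serpin PEDF, was at 24.7, 20.7 and 22.8 CPM in the WT-labelled libraries and 60.9, 60.3 and 62.8 CPM in the TAZKo-labelled libraries (1.43), without overlap, and Adamts6 and Reck, a membrane inhibitor of metalloproteases, were higher by 0.98 and 0.73. The integrins Itgb8 (-0.90), Itgb3 and Itga3 were lower (54.1 to 31.1 CPM, -0.80, and 367 to 254 CPM, -0.53), and Itgb1, the common beta chain, was not called (-0.04). Itgb7 and Itga6 were higher (0.46 and 0.25), which gave 2 of 14 integrins higher and 3 lower, but 1 higher without TAZKo replicate 3 or WT replicate 1 and 0 without any other library. The 35.7% of integrins called lies near the 30.4% of all tested genes.

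**Figure D4:**
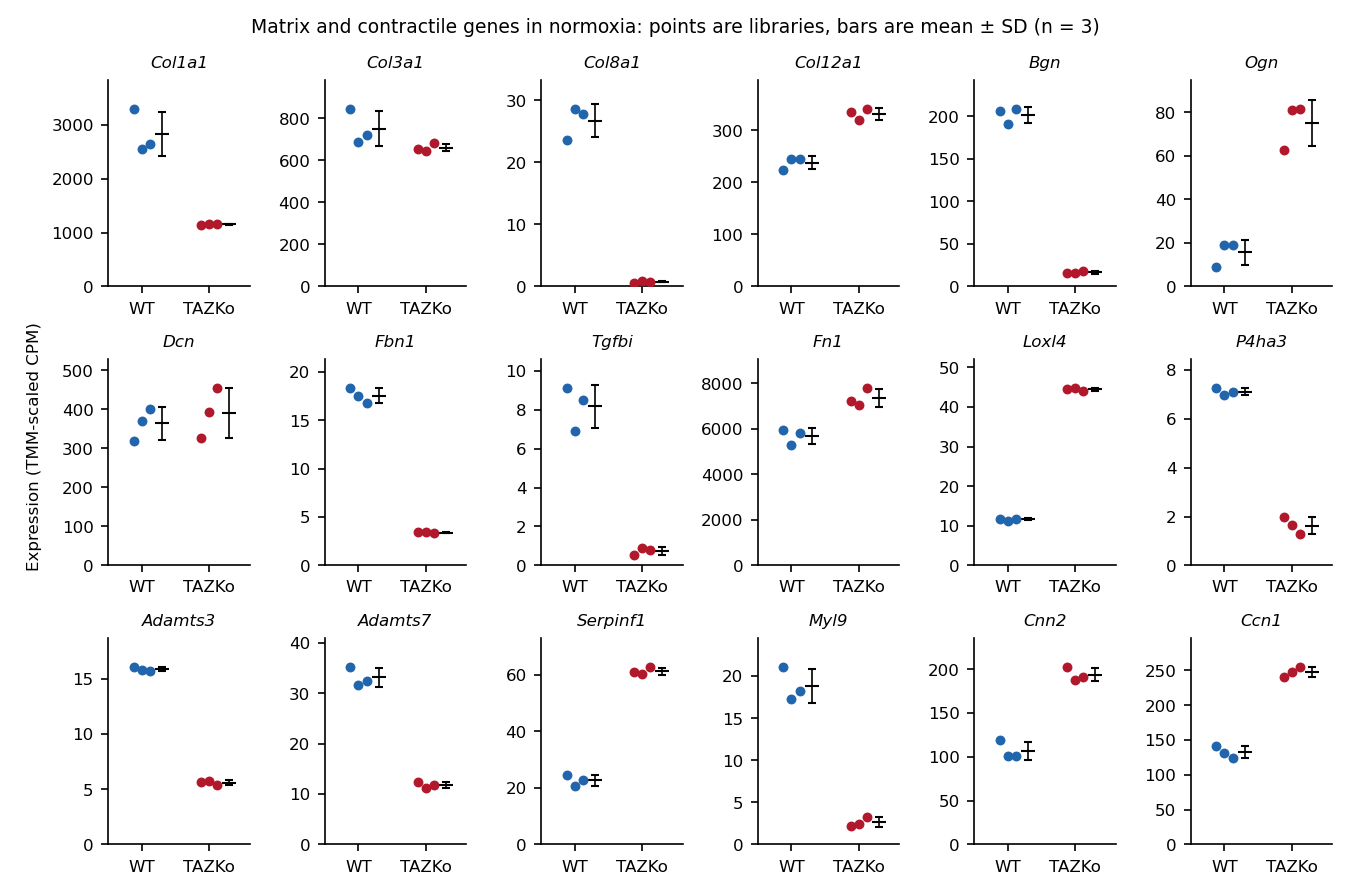
CPM of 18 matrix and contractile genes in each WT (blue) and TAZKo (red) normoxia library, with the mean and SD of n = 3 beside the points and each axis starting at 0. Bgn, Col8a1, Fbn1, Tgfbi and Myl9 are far lower in TAZKo, Ogn, Loxl4 and Serpinf1 are higher, and the points of Dcn overlap.

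Contractile genes counted 9 of 20 higher and 4 lower, and 5 and 4 were higher without TAZKo replicate 2 and without TAZKo replicate 3. Myl9, a myosin light chain of smooth muscle, was at 21.1, 17.2 and 18.2 CPM in the WT-labelled libraries and 2.15, 2.47 and 3.31 CPM in the TAZKo-labelled libraries (-2.81). Cnn2, a calponin, was at 119, 101 and 101 CPM in the WT-labelled libraries and 202, 188 and 190.4 CPM in the TAZKo-labelled libraries (0.86). The groups overlapped in neither. Tpm2, a tropomyosin, was higher and Smtn, smoothelin, and Myh9, non-muscle myosin, were lower (0.45, -0.70 and -0.24). Des, desmin, was higher at low levels (4.18 to 9.73 CPM, 1.22), and Acta2, the alpha smooth muscle actin of myofibroblasts, was not called (28.9 ± 2.62 to 34.5 ± 3.71 CPM; 0.26). In the YAP and TEAD list, Ankrd1, a YAP target, was higher (37.3 to 73.7 CPM, 0.98) and Yap1 itself was lower (156 ± 11.6 to 107 ± 6.19 CPM; -0.54), as were its DNA-binding partner Tead2 and Ajuba (-0.34 and -0.24). Lats1, a kinase that restrains YAP, and Amotl2 were higher (0.53 and 0.18), with 3 of 19 higher and 4 lower. The share called was 36.8%, beside 30.4% of all tested genes. Wwtr1, which encodes the transcriptional coactivator that is also called TAZ and is unrelated to tafazzin, was not called (206 ± 32.6 to 206 ± 21.8 CPM).

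Most cholesterol synthesis genes were lower in TAZKo. Of 24 tested genes of cholesterol synthesis and uptake, 14 were called lower and 0 higher, with a median log2 difference of -0.32, and off chromosomes 8, 10, 18 and 19 the count was 10 of 19, and 8 of 16 with chromosomes 3 and 4 set aside too. Fdft1, squalene synthase, was at 59.7, 56.5 and 57.6 CPM in the WT-labelled libraries and 39.7, 36.9 and 40.3 CPM in the TAZKo-labelled libraries. Mvd, the decarboxylase that ends the mevalonate steps, was at 53.5, 43.5 and 41.6 CPM in the WT-labelled libraries and 32.6, 32.3 and 29.5 CPM in the TAZKo-labelled libraries. The groups did not overlap in either (log2 difference -0.57, SE 0.06, adjusted p = 1.4e-05, and log2 difference -0.55, SE 0.09, adjusted p = 5.3e-04, in edgeR). Also lower were Tm7sf2, a late-step reductase (-0.65), Stard4 and Insig1, of sterol transport and feedback (-0.42 and -0.44), and Srebf2, the transcription factor that drives the pathway (-0.24). Abca1, which exports cholesterol, was higher (39.2 ± 6.13 to 59.5 ± 9.51 CPM; 0.60), whereas Mylip, a ubiquitin ligase, and Npc1 were lower (-0.54 and -0.30).

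Among genes of fatty acid synthesis the desaturases were lower. Fads2 and Fads1, which make long polyunsaturated fatty acids, were at 252, 233 and 243 CPM and 399.9, 384 and 402 CPM in WT and at 133, 131 and 142 CPM and 282, 272 and 280.4 CPM in TAZKo. Neither overlapped (-0.84 and -0.51), and both lie on chromosome 19, as does Scd2, a stearoyl-CoA desaturase (2101 to 1628 CPM, -0.37). Fasn, fatty acid synthase, was lower (498 ± 49.6 to 392 ± 10.2 CPM; -0.34), and Acaca and Acly, the steps before it, were not called (-0.08 and -0.13). Acacb, the acetyl-CoA carboxylase of the mitochondrial surface, was higher by 0.69, Acss2 by 0.24 and Acsl5 by 0.19. The list counted 3 of 24 higher and 7 lower, or 2 higher and 4 lower of 16 off the named chromosomes. With the replicate number as a block 6 were higher, and without TAZKo replicate 2 or 3 or WT replicate 2 it was 1.

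Lipid storage genes counted 1 of 22 higher (Agpat3, 0.31) and 6 lower, 4 higher and 7 lower without WT replicate 1, and 2 higher with the replicate block. The share called was 31.8%, beside 30.4% of all tested genes. Lpl, lipoprotein lipase, was at 229, 272 and 275 CPM in the WT-labelled libraries and 94.4, 103 and 108 CPM in the TAZKo-labelled libraries (-1.34), without overlap, and Lipe and Mgll, lipases of stored fat, were lower (-0.69 and -0.84). Plin2, the common lipid droplet coat, was not called (0.12). Fatty acid oxidation had 5 of 30 higher and 1 lower, 3 higher without any 1 library other than WT replicate 1, and 2 lower with the replicate block or without TAZKo replicate 3 or WT replicate 3 and 3 lower without WT replicate 2. The gene called lower was Cpt1a, the carnitine transferase that admits fatty acids to mitochondria (137 ± 6.805 to 102 ± 2.85 CPM; -0.42), while Acadm and Decr1, of the oxidation spiral, were slightly higher (0.20 and 0.30). Pdk4, which restrains pyruvate oxidation, and Cpt2 were higher by 0.73 and 0.20. Ppargc1a, the coactivator of mitochondrial biogenesis, was higher from a low base (1.104 to 3.49 CPM, 1.64).

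Genes of cardiolipin metabolism showed mostly small differences. Of 22 tested, 2 were higher (Taz and Hsd17b10, 0.25) and 6 lower, 5 and 7 with the replicate block, and 0 and 1 higher without TAZKo replicate 1 and without WT replicate 2. The share called was 36.4%, beside 30.4% of all tested genes. Crls1, cardiolipin synthase, was at 29.3, 48.2 and 44.5 CPM in the WT-labelled libraries and 46.7, 52.8 and 50.8 CPM in the TAZKo-labelled libraries, and the groups overlapped (0.30, adjusted p = 0.107 in edgeR). Tamm41, which makes CDP-diacylglycerol for it, was lower (-0.34), a call that was lost with only the 6 normoxia samples, without WT replicate 1 and without TAZKo replicate 2 or 3. Hadha and Lclat1, other enzymes that acylate lysocardiolipin, were not called (0.09 and 0.23). Pla2g6, a phospholipase that removes acyl chains, was lower (75.8 ± 9.397 to 54.03 ± 1.22 CPM; -0.49), and Prelid2, of a family of lipid carriers of the intermembrane space, was lower at low level (5.09 to 2.08 CPM, -1.29).

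Respiratory chain genes had few calls in the main fit. Over the 3 lists of nuclear-encoded subunits of the complexes, 82 genes were tested. Of these, 6 were higher and 10 lower, beside 30.4% of all tested genes called, and 1 differed by at least 2-fold. More subunits were called without WT replicate 1 or with the replicate block. Calls among all tested genes were then 4961 of 14682 and 5212 of 14408, and the low share is stated for the main fit alone. Of 36 complex I subunits 3 were higher and 4 lower, 9 were higher without WT replicate 1, 1 without TAZKo replicate 2 or 3, and 8 were lower without WT replicate 3. For complexes II to IV it was 2 higher and 5 lower of 28 (5 higher without WT replicate 1 and 1 without any other library, 8 lower with the replicate block or without WT replicate 3 and 3 without TAZKo replicate 3), and for ATP synthase 1 higher and 1 lower of 18 (6 lower with the block, 4 without WT replicate 2 or 3, 2 without TAZKo replicate 1, and 2 higher and 2 lower without WT replicate 1). Ndufv1, a core flavoprotein subunit, went from 199 ± 22.8 to 151 ± 9.06 CPM (-0.40), Ndufs8 was lower (-0.42), Cox8a went from 283 ± 41.7 to 210.5 ± 14.4 CPM (-0.43) and Atp5a1, the alpha subunit of ATP synthase, from 1326 ± 91.3 to 1014 ± 28.9 CPM (-0.39). Sdhc and Uqcrfs1, of complexes II and III, were lower (-0.37 and -0.23), and Ndufa12, Ndufs5, Ndufs1, Cox7a2l and Atpif1, an inhibitor of ATP synthase, were higher by 0.37, 0.33, 0.21, 0.26 and 0.42. Ndufv1, Ndufs8, Cox8a and Atp5a1 lie on chromosomes 18 or 19. Cox6a2, the heart and muscle form of a cytochrome oxidase subunit, was the gene past 2-fold, at 1, 2 and 1 reads in the WT-labelled libraries and 23, 17 and 22 in the TAZKo-labelled libraries.

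Of 7 tested mitochondrially encoded genes, mt-Cytb alone was called (2903 ± 773 to 4869 ± 183 CPM; 0.75), while 2 were called higher with the replicate block and 4 with no filter on low counts. It was at 2017, 3257 and 3435 CPM in the WT-labelled libraries and 4692, 4856 and 5058 CPM in the TAZKo-labelled libraries, and the lowest value belonged to WT replicate 1, the library with the low mitochondrial share. TCA cycle and pyruvate genes counted 2 of 33 higher and 7 lower (4 and 11 with the block, 12 lower without WT replicate 2, 1 higher without TAZKo replicate 2 or 3 or WT replicate 2 or 3), and those lower included Fh1, fumarase (-0.35), Mdh2, malate dehydrogenase (-0.29), Ogdh (-0.28), Me2, malic enzyme (-0.46), and Pdp2, a pyruvate dehydrogenase phosphatase (-0.40). The 27.3% of that list called lies near the 30.4% of all tested genes. Among mitochondrial proteases, Lonp1 of the matrix was higher (267 ± 28.6 to 397 ± 21.9 CPM; 0.57) and Afg3l2 and Spg7 of the inner membrane were lower (-0.47 and -0.35). Hspd1, the chaperonin HSP60, was not called (-0.04). The list of mitochondrial chaperones, proteases and import counted 3 of 24 higher and 6 lower. It had 1 higher without TAZKo replicate 1 or 2 and 10 lower without WT replicate 3. Opa1 and Mfn2, which fuse mitochondria, were not called (-0.06 and 0.17), and Chchd3 and Immt, of the cristae junctions, were lower (-0.27 and -0.20). The list of mitochondrial dynamics and cristae counted 2 of 21 higher and 2 lower, or 4 and 4 with the block, 4 lower without WT replicate 1 or 3, 1 higher without TAZKo replicate 1 and 0 higher without TAZKo replicate 2 or 3.

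Most glycolysis genes were lower in TAZKo. Of 23 tested, 15 were called lower and 1 higher (median -0.31), and 14 of 20 were lower off chromosomes 8, 10, 18 and 19 and 11 of 17 with chromosomes 3 and 4 set aside too, and 3 were higher without WT replicate 1. Gpi1, glucose phosphate isomerase, was at 336, 276 and 285 CPM in the WT-labelled libraries and 202, 194 and 187 CPM in the TAZKo-labelled libraries. Tpi1, triose phosphate isomerase, was at 665, 574 and 566 CPM in the WT-labelled libraries and 452, 450.3 and 421 CPM in the TAZKo-labelled libraries. The groups did not overlap in either gene (log2 difference -0.62, SE 0.08, adjusted p = 5.0e-05, and log2 difference -0.45, SE 0.07, adjusted p = 2.9e-04, in edgeR). Also lower were Pgam1, a mutase (-0.53), Slc2a1, the glucose carrier GLUT1 (-0.31), and Slc16a1 and Slc16a3, lactate carriers (-0.55 and -0.47). Hk1, a hexokinase on chromosome 10, was the gene called higher (106 ± 12.9 to 145 ± 2.73 CPM; 0.45), and Hk2, another hexokinase, was not called (-0.10). Of the 15 genes lower, 9 share at least 10% of their 50-base words with other annotated genes, so reads of Eno1, Pgk1, Pkm, Gapdh and the like may have been split between copies.

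**Figure D5:**
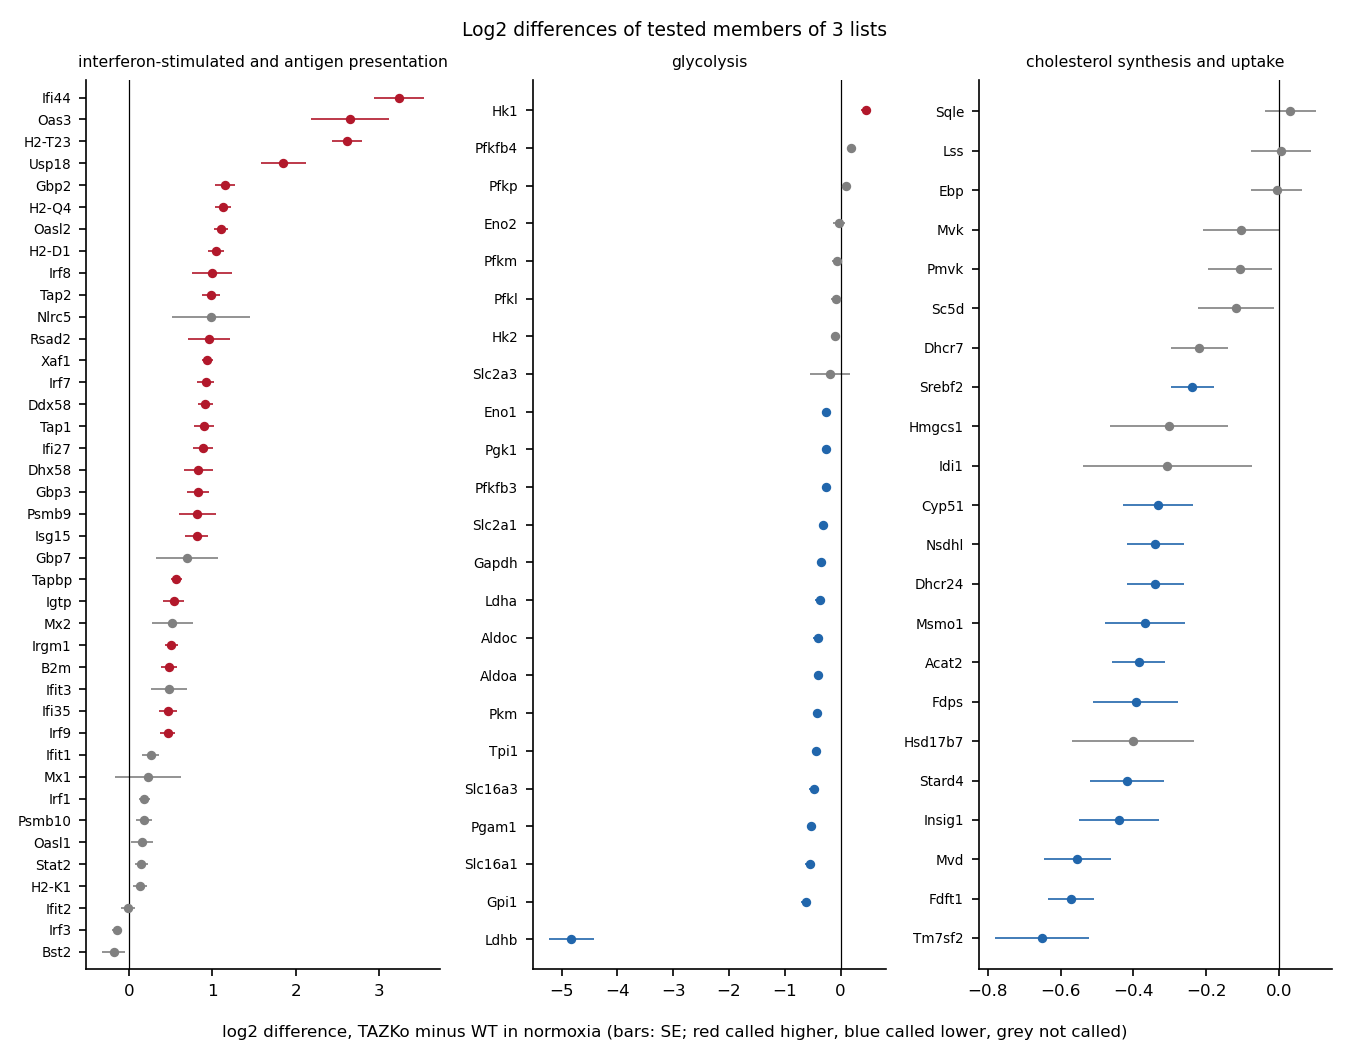
Log2 differences (TAZKo minus WT in normoxia, x axis, with SE bars) of tested members of the interferon, glycolysis and cholesterol lists (3 members not reported here are left out), with red for called higher, blue for called lower and grey for not called. Interferon genes lie mostly to the right of 0, while glycolysis and cholesterol genes lie mostly to the left of 0.

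Signalling genes were called often in both directions. Of 37 tested Wnt pathway genes, 11 were higher (7 without TAZKo replicate 2 or 3) and 13 lower. Beside Wnt5a, Wnt5b was lower (5.397 to 0.61995 CPM, -3.11), as were Wnt9a (10.7 to 4.62 CPM, -1.2041) and Wnt2 (3.31 to 1.77 CPM, -0.90), whereas Wnt4 was higher by 0.27, with overlap between the groups. Sfrp1, a secreted Wnt antagonist, was at 17.8, 19.5 and 23.04 CPM in the WT-labelled libraries and 0.631, 0.433 and 0.711 CPM in the TAZKo-labelled libraries. Sfrp2, its close relative, was at 53.4, 50.1 and 47.3 CPM in the WT-labelled libraries and 103, 98.5 and 105 CPM in the TAZKo-labelled libraries. They differed in opposite directions, each without overlap (-5.05 and 1.02). Sfrp4 was lower (26.2 to 6.804 CPM, -1.94), and Notum, a Wnt deacylase, was higher (3.75 to 9.91 CPM, 1.40). Of the receptors, Fzd5 and Fzd1 were higher (1.07 and 0.48), Lrp5 was lower (-0.52) and Ror2, a receptor of WNT5A, was not called (0.14). Axin2, a feedback target of canonical Wnt signalling, was not called (2.44 ± 0.575 to 1.56 ± 0.53005 CPM; -0.60).

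In the IGF list 3 of 19 were higher and 6 lower, and 5 were higher with the replicate block. Igf1 was higher from a low base (0.533 to 3.14 CPM, 2.55), and Igf1r, its receptor, was not called (0.19). Igfbp5 and Igfbp2, further binding proteins, were lower (36.6 ± 2.25 to 20.1 ± 1.42 CPM, -0.87, and 15.6 to 8.82 CPM, -0.82), as was Igfbp3 among the silent genes. Stc2, an inhibitor of IGFBP cleavage, was higher (1.91 to 7.11 CPM, 1.87), as was Irs1, a docking protein of the receptor (0.77).

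TGF-beta and BMP genes leaned higher, with 15 of 41 higher and 6 lower. Bmp2 was at 35.3, 34.7 and 34.6 CPM in the WT-labelled libraries and 68.9, 73.8 and 69.5 CPM in the TAZKo-labelled libraries. Grem1, a secreted BMP antagonist, was at 1.24, 1.49 and 1.304 CPM in the WT-labelled libraries and 7.03, 6.85 and 7.17 CPM in the TAZKo-labelled libraries. Both differed without overlap (1.02 and 2.38). Bmp7 was higher (8.65 to 15.4 CPM, 0.83), Bmp6 lower (9.005 to 4.91 CPM, -0.87) and Bmp4 not called (0.21). Id1 and Id3, direct BMP targets, were higher by 0.39 and 0.36. Tgfb1 was higher and Tgfb2 lower (0.44 and -0.56), and Smad2, a transducer of TGF-beta signals, was lower (-0.47).

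Growth factor genes of the FGF and PDGF families were split, with 10 of 32 higher and 9 lower, and 5 and 6 were higher without TAZKo replicate 1 and without WT replicate 2. Fgf5, a ligand, was at 65.996, 77.6 and 70.6 CPM in the WT-labelled libraries and 31.2, 32.4 and 28.5 CPM in the TAZKo-labelled libraries (-1.22), and Pdgfb was lower (42.9 ± 5.32 to 23.2 ± 0.498 CPM; -0.88). Pdgfrb, its receptor, was at 53.5, 45.01 and 50.4 CPM in the WT-labelled libraries and 103, 98.1 and 111 CPM in the TAZKo-labelled libraries (1.07). Every TAZKo library was below the WT range for the ligands and above it for the receptor. Pdgfra was higher by 0.34, and Fgfr1 and Fgfr3 by 0.46 and 0.5020. Dusp6 and Dusp5, phosphatases that act on ERK, went in opposite directions (0.96 and -0.94). Off chromosomes 8, 10, 18 and 19 the count was 5 higher and 5 lower of 21.

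In the Notch and Hedgehog list 6 of 23 were higher and 5 lower. Ptch1, the Hedgehog receptor and a target of the pathway, was at 61.8, 68.4 and 71.6 CPM in the WT-labelled libraries and 123, 122 and 125 CPM in the TAZKo-labelled libraries (0.87), without overlap, and Gli1, a transcriptional readout, went from 3.13 to 5.55 CPM (0.83). The co-receptors Gas1 and Boc and the transducer Smo were lower (-0.64, -0.50 and -0.28), as was Gli2 (-0.38). Hey1, a Notch target, and Jag1 and Dll1, ligands, were higher (11.7 to 28.9 CPM, 1.30; 31.2 to 45.8 CPM, 0.55; 2.98 to 9.15 CPM, 1.62), and Hes1, another target, was not called (0.25).

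Calcium handling genes counted 8 of 22 higher and 4 lower. Cacna1c, the pore of the L-type channel, was at 4.25, 3.86 and 4.13 CPM in the WT-labelled libraries and 26.4, 22.6 and 23.5 CPM in the TAZKo-labelled libraries, the third of the increases named by rule (log2 difference 2.56, SE 0.11, adjusted p = 2.6e-09 in edgeR). Mcu, the pore of the mitochondrial calcium uniporter, lies on chromosome 10 and was higher (56.2 ± 3.94 to 82.2 ± 1.81 CPM; 0.55). Itpr2, an ER calcium channel, was higher too (4.23 to 9.73 CPM, 1.1985). Atp2b4, a plasma membrane calcium pump, was lower (70.1 ± 5.904 to 29.1 ± 1.504 CPM; -1.27), as were Atp2a2, the pump of the ER, and Cacnb3 (-0.27 and -0.42). Off chromosomes 8, 10, 18 and 19 the count was 4 higher and 4 lower of 18.

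Among Hox genes, 4 of 29 were higher (2 without TAZKo replicate 3) and 6 lower, so 34.5% were called, near the 30.4% of all tested genes. Apart from Hoxd8, the called genes were Hoxb9, which was higher (35.8 ± 1.98 to 62.8 ± 3.89 CPM; 0.81), and others that differed less or lay at low level, such as Hoxa10 (12.1 to 7.92 CPM, -0.61), Hoxa5 (5.59 to 7.74 CPM, 0.47), Hoxb5 (0.27) and Hoxc13 (-0.37). Of 52 other mesenchymal transcription factors 17 were higher and 11 lower (7 lower without TAZKo replicate 1 or 2). Foxf1, a factor of visceral mesenchyme, was at 10.9, 11.2 and 10.97 CPM in the WT-labelled libraries and 29.5, 31.5 and 31.9 CPM in the TAZKo-labelled libraries (1.49). Snai2, which represses epithelial genes, was at 11.1, 11.8 and 13.7 CPM in the WT-labelled libraries and 31.1, 33.7 and 33.8 CPM in the TAZKo-labelled libraries (1.42). Neither overlapped. Prrx1 and Prrx2, of limb and head mesenchyme, were higher (0.77 and 0.89), as was Twist2 (1.25), and Gata6 and Emx2 were lower (198 to 126 CPM, -0.65, and 10.2 to 4.65 CPM, -1.12), as was Dlx2 (-0.43).

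Several imprinted genes, which are expressed from the allele of a single parent, were among the strongest decreases. Peg3, paternally expressed, had 311, 365 and 475 reads in the WT-labelled libraries and 3, 0 and 6 in the TAZKo-labelled libraries (chr7:6703892-6730431), the largest decrease among the non-silent genes named by rule. Its neighbour Usp29 had 7, 10 and 16 reads in the WT-labelled libraries and 0, 0 and 0 in the TAZKo-labelled libraries. Peg10, needed in placenta, was at 467, 589 and 621 CPM in the WT-labelled libraries and 119, 134 and 149 CPM in the TAZKo-labelled libraries (log2 difference -2.06, SE 0.12, adjusted p = 3.2e-08 in edgeR). Ppp1r9a, in the same cluster, had 35, 43 and 76 reads in the WT-labelled libraries and 1, 4 and 1 in the TAZKo-labelled libraries, whereas Sgce, which is adjacent to Peg10, was not called (38.9 ± 2.73 to 35.1 ± 1.83 CPM; -0.15). Grb10, a growth inhibitor, was higher (315 ± 15.8 to 485 ± 18.3 CPM; 0.62), and Igf2r, the receptor that clears IGF2, was not called (0.14). Of the 20 tested, 2 were higher and 6 lower, and 1 was higher without TAZKo replicate 1 or 3 or WT replicate 1 or 2. Xist had 1 to 5 reads in each normoxia library and the Y-linked Ddx3y, Eif2s3y, Kdm5d and Uty had at most 1.

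Fibroblast markers were present in both genotypes, with the exceptions that Fap had 0 reads in all 6 libraries, Lum at most 2 and Thy1 at most 6. Vim, Fn1, Col3a1, Pdgfra and Dcn were well expressed, and the summed level of the 12 markers was 10394 to 12062 CPM in WT and 11335 to 12218 CPM in TAZKo. That sum hides changes in both directions, such as Fn1 (5697 to 7356 CPM) and Col1a1 (2835 to 1153 CPM). Of 9 tested fibroblast markers, 5 were called higher and 2 lower, with 2 in each direction by at least 2-fold. Genes of mesothelium, the lining of body cavities, were also expressed. Upk3b, a uroplakin found there, was at 1087, 956 and 1028 CPM in the WT-labelled libraries and 304, 299.6 and 339.7 CPM in the TAZKo-labelled libraries. Wt1, a factor of mesothelium and the urogenital ridge, was at 263, 283 and 289 CPM in the WT-labelled libraries and 174, 181 and 199 CPM in the TAZKo-labelled libraries. Both were lower without overlap (-1.70 and -0.59), as were Krt7 and Lrrn4 (-3.12 and -2.75). Msln, mesothelin, was not called (140.3 ± 16.5 to 152 ± 12.2 CPM; 0.11), and the summed level of the 5 mesothelial markers was 1398 to 1532 CPM in WT and 630.4 to 686 CPM in TAZKo.

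Keratins were lower as well. Krt14 went from 244 ± 31.1 to 104 ± 4.87 CPM (-1.24) and Krt19 from 116 ± 21.5 to 56.5 ± 3.91 CPM (-1.04). Krt18 differed less (132 ± 16.1 to 99.8 ± 4.24 CPM; -0.40), and Krt8 was lower at low level (1.20 to 0.49 CPM, -1.27). The summed level of the 7 epithelial markers was 448 to 571 CPM in WT and 249 to 272 CPM in TAZKo, whereas Epcam and Cdh1, which define epithelium, had at most 17 and 7 reads in any library. Pecam1 was higher at low level (0.227 to 0.577 CPM, 1.38). Tek and Kdr, endothelial receptors, were lower (15.96 to 4.91 CPM, -1.69, and 3.15 to 0.998 CPM, -1.65), while Cdh5, Emcn and Tie1 had at most 1 read. These markers moved with the matrix, keratin and transcription factor differences above, and their part in them was not tested.

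Replication and mitosis genes counted 1 of 37 higher (0 without any 1 library other than WT replicate 1) and 14 lower (median -0.14). Mcm6, of the replicative helicase, was at 457, 426 and 440.1 CPM in the WT-labelled libraries and 243, 219.7 and 229 CPM in the TAZKo-labelled libraries (-0.94), without overlap, and Rrm2, the ribonucleotide reductase subunit, went from 268 ± 7.43 to 193 ± 7.11 CPM (-0.48). Mki67 and Pcna, common markers of cycling cells, were not called (-0.04 and -0.13). Of p53 targets and CDK inhibitors 10 of 30 were higher and 2 lower (4 lower with the replicate block, 1 without TAZKo replicate 3 or WT replicate 1). Perp, a p53-induced membrane protein, was at 16.3, 17.99 and 17.6 CPM in the WT-labelled libraries and 51.7, 59.9 and 59.7 CPM in the TAZKo-labelled libraries (1.72) and lies on chromosome 10. Cdkn1a, the CDK inhibitor p21, went from 17.98 ± 1.796 to 28.5 ± 1.94 CPM (0.66), Mdm2, which degrades p53, was higher by 0.40, and Bax, a death effector, was not called (-0.18).

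Outside the lists, the largest decreases included membrane and cytoskeletal genes. Cd34, a sialomucin of progenitor and stromal cells, was at 53.04, 49.9 and 54.04 CPM in the WT-labelled libraries and 1.01, 0.693 and 0.835 CPM in the TAZKo-labelled libraries (log2 difference -5.94, SE 0.16, adjusted p = 3.2e-11 in edgeR). Epb41l3, a membrane skeleton protein, was at 60.9, 67.5 and 65.99 CPM in the WT-labelled libraries and 1.85, 1.99 and 1.95 CPM in the TAZKo-labelled libraries (-5.06). Uchl1, a neuronal deubiquitinase, was at 17.03, 14.3 and 16.6 CPM in the WT-labelled libraries and 0.673, 0.563 and 0.495 CPM in the TAZKo-labelled libraries (-4.80). For all 3 the groups lay far apart. Lrp2, the endocytic receptor megalin, Adcy1, an adenylyl cyclase, and Ddc, which makes dopamine and serotonin, were lower (-4.42, -3.65 and -3.55).

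Among the largest increases outside the lists, Deptor, an inhibitor bound to mTOR, was at 10.6, 16.5 and 14.7 CPM in the WT-labelled libraries and 66.5, 70.2 and 69.1 CPM in the TAZKo-labelled libraries (log2 difference 2.30, SE 0.11, adjusted p = 8.5e-09 in edgeR). Pde8a, a cAMP phosphodiesterase, was at 4.25, 4.17 and 3.98 CPM in the WT-labelled libraries and 19.6, 19.3 and 18.7 CPM in the TAZKo-labelled libraries (2.22). P2rx3, an ATP-gated ion channel of sensory neurons, was at 1.99, 2.15 and 1.59 CPM in the WT-labelled libraries and 10.3, 11.3 and 9.06 CPM in the TAZKo-labelled libraries (2.42). The genotypes overlapped in none of these. Prune2, Srgap3, Dhrs9 and Aspg were higher by 2.29, 2.08, 1.96 and 1.91.

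Small differences and shared sequence limit some of these values. Counts that moved by over 1.5 times with 1 library left out are given beside each list above. Among the lists with the most uneven calls, with 1 library left out at a time, 14 to 17 ATF4 effectors, 12 to 13 cytosolic tRNA synthetases and 25 to 30 interferon genes were called higher, and 13 to 15 glycolysis genes, 11 to 16 cholesterol genes and 12 to 17 replication genes lower. Of the called genes that the naming rule or the text above names, 297 of 343 kept their call under all 16 other settings tried for single genes. The other 46 lost it under at least 1 setting, in 12 of them only when 1 library was left out, and those described above are Acadm, Acsl5, Acss2, Ajuba, Amotl2, Atf3, Cox7a2l, Cpt2, Eno1, Fmod, Gclm, Gli2, Hars, Hoxb5, Hsd17b10, Id3, Itga6, Itgb7, Jag1, Lamb2, Lif, Mdm2, Ndufa12, Ndufs1, Ndufs5, Pdgfra, Pecam1, Pgk1, Podnl1, Postn, Rars2, Slc43a2, Tamm41, Taz, Uqcrfs1, Wnt4 and Yars2. With the replicate number as a block, 11 genes given above as not called passed the test, namely Crls1 (adjusted p = 0.0313), Lclat1 (adjusted p = 0.0392), Shmt1 (adjusted p = 0.0404), Mfn2 (adjusted p = 0.0494), Axin2 (adjusted p = 0.0415), Igf1r (adjusted p = 0.0344), Bmp4 (adjusted p = 0.0348), Hes1 (adjusted p = 0.0119), Ccl2 (adjusted p = 0.027), Hoxd10 (adjusted p = 0.0365) and Bax (adjusted p = 0.0387) in edgeR, and no named call was lost. The way reads shared by near-identical or overlapping genes were counted is not given in the sources used here. Of the genes named with a call, Aars, Ahcy, Aldh1l2, Atpif1, Cdkn1a, Cox7a2l, Csf1r, Dll1, Dusp5, Eno1, Fbn1, Fdft1, Fzd5, Gapdh, Gas1, Glul, Got2, Gpi1, H2-D1, H2-Q4, H2-T23, Hoxd11, Iars2, Irs1, Krt14, Krt8, Ldhb, Loxl2, Ndufa12, Ndufs5, Notum, P3h2, Pgam1, Pgk1, Pkm, Sfrp2, Slc6a9, Smtn, Tap2, Twist2, Uchl1 and Usp29 share at least 10% of their 50-base transcript words with another annotated gene, and their values are uncertain to that extent.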

How the data were processed

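RNA from mouse embryonic fibroblasts was sequenced as TruSeq RNA v2 libraries, per the labels' protocols. The authors deposited raw read counts per Ensembl gene ID for each library, made against build mm10 per the submitters' processing notes. The aligner, the counter, its treatment of strand and of reads shared between genes, and the gene annotation are not given in the sources used here. The tables hold 48709 IDs, of which 48349 were matched by ID to GENCODE M21 (GRCm38) for names, coordinates and transcripts, and 360 were not.

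Counts of all 12 libraries were fitted with edgeR 4.0.16 (R 4.3.3, limma 3.58.1) as 4 groups, with TMM scaling, filterByExpr and the quasi-likelihood test (8 residual degrees of freedom, common biological coefficient of variation 8.62%). P-values were adjusted by Benjamini-Hochberg over all 14408 tested genes. SE is the log2 difference divided by the square root of F. In a normoxia library, 3 reads correspond to 0.0927 to 0.133 CPM, which is the limit that a count of 0 allows, for counting error only. The procedure was tested on simulated counts. The gene lists, markers and members were chosen with earlier results of these data known. No test was made of any list.

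The genes named are Taz, the 15 largest increases and 15 largest decreases among called genes at 10 CPM or more on average in a normoxia group and with no overlap, the 10 silent genes with the highest level, and up to 3 called members per direction in each list with at least 5 CPM and no overlap. Further members were added where a sentence on the list needed them, and Tenm4, Ifi44 and Lyz2 were chosen after their values were seen. Of the 15 largest decreases, Tmem108, Pdzd2, Kank4 and 1 unnamed ID are not described. Some list members are not reported here by name and count only in the list totals.

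Replicate numbers come from the titles, and no label says what they stand for. Deviations from the group means correlated at 0.354, 0.149 and 0.228 between libraries of the same number and at -0.293 to 0.116 between libraries of different numbers. The numbers may therefore pair the samples. The main fit did not use them, and calls and p-values above come from it unless another setting is named. With the number as a block 5212 genes were called against 4384, and this fit was an alternative. The others were DESeq2 size factors, upper quartile scaling, library size alone, the DESeq2 1.42.0 Wald test, no filter, a minimum mean of 5 CPM, sequencing lane as a covariate, only the 6 normoxia samples, and leaving out each normoxia library. After seeing the data, the 6 normoxia samples with the block and counts without genes on chromosomes 8, 10, 18 and 19, or on chromosomes 3 and 4 as well, were added. Shared sequence was measured as the percent of 50-base stretches in the longest transcript that also occur, on either strand, in a transcript of another gene. Promoter sequences are RefSeq's, GRCm38.p6.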

Additional observations from a re-analysis of the deposited data

Results flagged for a closer look

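The hypoxia libraries of both genotypes allowed a test of whether the difference between TAZKo and WT was itself different in hypoxia (the interaction term of the edgeR fit), and 350 genes passed it, 2.43% of those tested. Of the genes named in the report 50 passed, and the values below are the hypoxia difference minus the normoxia difference on the log2 scale. Many of these genes were named for the size of their difference in normoxia, so smaller differences in hypoxia are in part set by that choice.

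Effectors of ATF4 and amino acid genes were the most numerous. For Trib3 the log2 difference was 2.37 in normoxia and 0.59 in hypoxia, a change of -1.79 (SE 0.16, adjusted p = 0.00016 in edgeR). Its WT mean was 21.9 CPM in normoxia and 162 CPM in hypoxia, and its TAZKo mean was 113 and 244 CPM. Chac1 changed by -1.68, with WT means of 30.3 and 92.7 CPM and TAZKo means of 114 and 109.7 CPM. In both genes the WT mean was higher in hypoxia than in normoxia. The other effectors were Atf4 (-0.72), Atf3 (-1.78), Ddit3 (-0.85), Sesn2 (-1.12), Nupr1 (-0.88), Fgf21 (-1.79) and Herpud1 (-0.96). The sign of the difference turned for Atf3 (0.48 in normoxia, -1.30 in hypoxia), Fgf21 (1.10, -0.69) and Herpud1 (0.88, -0.09). Among enzymes and carriers, Cth changed by -1.27, Aldh1l2 by -0.65, Mthfd1l by -0.58, Slc7a11 by -1.42, Slc3a2 by -1.08, Slc6a9 by -0.60 and Slc7a1 by -0.77. Atf4 was at a log2 difference of 0.67 in normoxia and -0.04 in hypoxia, and Slc3a2 at 0.69 and -0.39.

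Some sterol and lipid genes were among those named genes. Fdft1 was at -0.57 in normoxia and -1.18 in hypoxia (change -0.61, adjusted p = 0.00279 in edgeR), and Mvd (-0.73), Tm7sf2 (-0.81), Insig1 (-0.67), Acly (-0.56), Acss2 (-1.24) and Prelid2 (-0.92) changed in the same direction. Acss2 was higher in TAZKo in normoxia and lower in hypoxia.

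Matrix and YAP target genes that were higher in TAZKo in normoxia did not all keep that direction. Ccn1 was at 0.90 in normoxia and -0.70 in hypoxia (-1.60, adjusted p = 1.2e-05 in edgeR), and Ccn2 at 0.48 and -1.27 (-1.75). Ankrd1 changed by -1.16, Adamts6 by -0.91 and Fbn1 by 0.94. Of signalling genes, Wnt9a changed by 1.51, Wnt4 by 0.58, Fzd5 by -0.46, Sfrp2 by -0.87, Stc2 by -1.53, Dusp6 by -1.24, Il33 by -0.98 and Atp2b4 by -0.62. The sign also turned for Wnt9a (-1.20 in normoxia, 0.31 in hypoxia), Dusp6 (0.96, -0.28) and Ankrd1 (0.98, -0.18).

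The remaining changes were -0.74 for H2-K1, -0.58 for H2-Q4, -1.01 for H2-T23, -0.46 for Hmox1, -0.59 for Lonp1, -0.45 for Hoxb9, -0.64 for Snai2, -1.17 for Cdkn1a, 0.64 for Krt14 and 1.51 for Krt7. Outside the lists they were -1.05 for Deptor, -1.32 for Prune2, -1.46 for Dhrs9 and 0.78 for Adcy1. Here the sign turned for Cdkn1a (0.66 in normoxia, -0.51 in hypoxia), H2-K1 (0.13, -0.61) and Lonp1 (0.57, -0.02).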

How the results depend on the processing

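The number of genes called was 4330 with DESeq2 size factors, 4366 with upper quartile scaling, 4392 with library size alone, 4615 with no filter, 3535 with a mean of at least 5 CPM, 4543 with lane, 3314 with only the 6 normoxia samples and 4323 with the DESeq2 test, against 4384. With the replicate number as a block it was 5212, and 4737 with the block in the 6 normoxia samples. Leaving out 1 library gave 3349 to 4961 calls, and 1440 to 2514 genes higher. Calls of at least 2-fold numbered 858, and 259 with a mean of at least 5 CPM. The share of calls that were higher was 41.7% to 53.4% over all settings, 51.1% as reported. The number of genes silent in TAZKo was 4 with 0 reads required, 59 with up to 10 reads allowed, 55 from 0.5 CPM and 11 from 2 CPM. For WT it was 10 with up to 10 reads and 2 from 0.5 CPM, and 0 to 1 without 1 library. Of 343 called genes named here, 297 kept their call under all 16 alternatives, 46 lost it in at least 1, and 2 genes without a call, Dcn and Wwtr1, turned direction. For Wwtr1, log2 difference 0.00, the value was 0.00906 with library size alone, 0.00186 with lane, 0.00326 with the replicate block and 0.0046 with the block in the 6 normoxia samples, and it was -0.123 to 0.0592 with 1 library left out. For Dcn it was -0.0511 to 0.191 with 1 library left out. The block ended no call of a named gene. For the silent genes depth sets a limit, since a count of 0 allows up to 3 reads.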
